A study of Mus musculus with 6 samples.

Results

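The voltage-gated sodium and calcium channel genes were taken as every gene of the deposited table whose symbol is that of a sodium channel alpha or beta subunit (Scn followed by a number and a or b) or of a calcium channel alpha-1, alpha-2/delta, beta or gamma subunit (Cacna1, Cacna2d, Cacnb and Cacng). These were 40 of the 52390 genes listed: 10 sodium alpha, 4 sodium beta, 10 calcium alpha-1, 4 alpha-2/delta, 4 calcium beta and 8 gamma genes. They were compared between mice that overexpressed AP1AR-DT (AP1AR-DT OE) and control mice, with 3 mice per group and 1 RNA-seq library per mouse. All were male C57BL/6 mice injected as adults in the medial prefrontal cortex (mPFC) with a recombinant adeno-associated virus (AAV). The OE virus carried AP1AR-DT, a human long noncoding RNA that the sample labels call AC109347.1, driven by the promoter of human synapsin I, which works in neurons of many types. The control virus was an empty vector, in mice labelled wild type, and both vectors also carried an EGFP reporter. The labels name the tissue only as brain, the study's methods name cortex and its results name the mPFC. AP1AR-DT is not a gene of the mouse table, so the group labels could not be checked by its level. The columns of the OE group are not tied to single mice and are called OE A, B and C.

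Voltage-gated sodium channels open when a neuron is depolarised and carry the rising phase of the action potential. Each is a large alpha subunit that forms the pore, joined by small beta subunits that set its gating and its place in the membrane. Voltage-gated calcium channels turn depolarisation into calcium entry, which drives transmitter release, dendritic firing and gene expression. Their alpha-1 subunit forms the pore of an L, P/Q, N, R or low-threshold T type channel, and alpha-2/delta and beta subunits carry the L, P/Q, N and R types to the membrane. Of the proteins named gamma, Cacng2, Cacng3, Cacng4 and Cacng8 are best known as TARPs, the auxiliary subunits of AMPA glutamate receptors. Genes of both families have been linked to epilepsy and mood disorders.

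The sodium channel alpha genes are close paralogs, so it was asked how much of their sequence a read could share. Of all 100-base stretches of the longest transcript, 1.22% in Scn1a, 1.53% in Scn2a, 2.95% in Scn3a and 1.96% in Scn9a also occurred in another gene, each time another of these 4. None of the other 36 channel genes had such a stretch. Exons of Cacna1h, Cacnb1, Scn9a and 7 other members overlap those of a gene on the opposite strand (Tpsg1, Gm11629 and Gm13629 for the named ones). The library kit named in the labels does not mark strand, so their counts may include reads from that gene. Exons of Cacng8 overlap those of Gm23450 on the same strand. How reads in such overlaps were counted was not settled.

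RefSeq promoters, from 250 bases before to 50 bases after a start site (GRCm38.p6), were at hand for 30 of the 40 channel genes, as 41 windows. They were searched on both strands for 3 motifs, among them that of NRF1, a transcription factor the study examined. The GC box (GGGCGG) was in 16 of the 41 windows, against 35.7% of all 32851 windows. The EGR1 motif (GCGNGGGCG) was in 7 windows, of Cacna1b, Cacna1c, Cacna1d, Cacna2d1, Cacna2d2, Scn7a and Scn8a, against 5.55% of all windows. The palindromic NRF1 motif was in 0 of the 41 windows and in 0.971% of all. The 250 bases before a start are shown for Cacnb1, which was called higher below, and for Scn7a, which was called lower. Capitals mark the motif letters.
Cacnb1 (chr11:98022628-98022877, minus strand): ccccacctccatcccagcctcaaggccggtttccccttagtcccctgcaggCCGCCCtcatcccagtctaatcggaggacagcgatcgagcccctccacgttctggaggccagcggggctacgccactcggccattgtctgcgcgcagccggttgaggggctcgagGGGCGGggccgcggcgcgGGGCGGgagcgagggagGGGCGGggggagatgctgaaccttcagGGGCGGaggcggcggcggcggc
Scn7a (chr2:66784911-66785160, minus strand): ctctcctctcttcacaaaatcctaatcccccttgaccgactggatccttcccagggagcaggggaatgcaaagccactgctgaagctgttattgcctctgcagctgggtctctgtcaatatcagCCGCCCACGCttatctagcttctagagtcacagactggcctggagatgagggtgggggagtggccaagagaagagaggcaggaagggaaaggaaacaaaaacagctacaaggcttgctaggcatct
The Cacnb1 stretch held 5 GC boxes, 26 CpG dinucleotides and 73.2% G and C. It lies inside the gene as annotated in GENCODE, which extends to chr11:98023034. RefSeq lists another start of Cacnb1, whose 250 bases before it (chr11:98018373-98018622, minus strand) held 0 GC boxes, 1 CpG dinucleotide and 56.0% G and C. The windows of Cacng8, Cacng6 and Scn10a, also called higher, held 0 of the 3 motifs. Each of these windows lay inside its gene as annotated in GENCODE. The only window of Cacng8 began at chr7:3393792, and the gene starts at chr7:3390683. That of Cacng6 began at chr7:3424412, and the gene starts at chr7:3424195. Scn10a, on the minus strand, starts at chr9:119719322, and its window reached only to chr9:119719282. The bases before these gene starts were thus not searched. Cacna1h, called higher as well, had no window. The Scn7a stretch held 1 GC box that overlaps 1 EGR1 motif, with 3 CpG dinucleotides and 53.2% G and C. A match of letters is a description and not a bound site.

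The libraries held 42061721 to 54668294 counts. Channel genes took 0.282% to 0.291% of the counts in control mice and 0.315% to 0.344% in AP1AR-DT OE mice. Mitochondrial genes took 7.20% to 9.86% in control mice and 5.75% to 6.80% in OE mice, without overlap between groups, and the part of this in the results below was not tested. The 6 pan-neuronal markers summed to 3019 to 3559 CPM (counts scaled to a fixed library total, with TMM factors) in control mice and to 3477 to 3895 CPM in OE mice. Of these markers, 2 were called higher by the rule given below, as were 5.1% of all genes. The markers of cortex, the tissue named in the study's methods, varied more. The 8 markers of excitatory cortical neurons summed to 2229, 1306 and 2351 CPM in controls 1, 2 and 3 and to 2789, 3474 and 1948 CPM in OE A, B and C, with overlap between groups. Slc17a7, the vesicular glutamate transporter of cortical neurons, had 28.2, 3.86 and 233 CPM in controls 1, 2 and 3 and 231, 463 and 87.2 CPM in OE A, B and C. Neurod6 was near 0 in control 2, at 0.080 CPM, and in OE C, at 0.57 CPM. The libraries of both groups thus differed in how far they carried the markers of cortex, and markers of other regions differed as well. The 7 markers of hypothalamic neurons summed to 603 CPM in control 2 and to 75.7 CPM in control 3, against 6.61 to 29.0 CPM in the other 4 libraries. The 6 markers of choroid plexus epithelium summed to 3883 CPM in control 3 and to 51.0 to 72.8 CPM elsewhere. Control 3 also had the highest sum of the 5 thalamic neuron markers, 831 CPM against 160 to 321 CPM elsewhere. The same held for the 6 oligodendrocyte markers, with 10643 CPM against 5048 to 6430 CPM elsewhere. Markers of striatal medium spiny neurons ranged from 353 to 1354 CPM in control mice and from 854 to 2388 CPM in OE mice. The part of tissue makeup in the results below was not tested.

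Of the 40 channel genes, 39 had enough counts to be tested. Scn4a, the sodium channel of skeletal muscle, was not, with 4 counts in OE C and 0 in the other libraries. A gene was called when edgeR gave P under 0.05 and |Log2FC| above 0.32, the thresholds of the study, without adjustment for the number of genes. On that rule 5 channel genes were called higher in AP1AR-DT OE mice: Cacna1h, Cacnb1, Cacng8, Cacng6 and Scn10a. This was 12.8% of the 39, and 5.1% of all 21844 genes tested were called higher. Only Scn7a was called lower, 2.56% of the 39 against 7.15% of all genes. No channel gene passed an adjusted P of 0.05 in edgeR, where adjusted P ranged from 0.295 to 0.988 and 0.0275% of all genes passed. At the unadjusted threshold alone 8 channel genes passed, the 6 called and Cacng7 and Scn8a. With DESeq2 3 channel genes had adjusted P under 0.05, namely Cacna1h, Cacng8 and Cacnb1. Of the 17969 genes to which DESeq2 gave an adjusted P, 2.5% did. The number called rested on single libraries: it was 3 without OE A or without OE B, 11 without OE C or without control 1, 5 without control 2 and 9 without control 3. In the same fits 7.19%, 6.33%, 15.6%, 15.0%, 9.79% and 10.8% of all genes were called, against 7.69%, 7.69%, 28.2%, 28.2%, 12.8% and 23.1% of the channel genes. Cacna1h, Cacnb1 and Cacng8 were called in each of these 6 fits. The Log2FC was above 0 for 25 channel genes and below 0 for 14, with a median of 0.10 against -0.01 over all genes.

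The groups did not overlap for 12 of the 39. Higher in every OE library than in every control library were Cacna1a, Cacna1h, Cacnb1, Cacng6, Cacng7, Cacng8, Scn2b, Scn8a and Scn10a, which are 23.1% of the channel genes against 10.4% of all genes. Lower in every OE library were Scn2a, Cacnb2 and Cacng4, which are 7.69% against 12% of all genes. With 3 mice per group, the exact permutation test (two-sided, on log2 CPM) cannot give a P below 0.1, and it gave 0.1 for each of the 12. In bulk tissue, fewer cells of a type and less RNA per cell cannot be told apart.

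**Figure D1:**
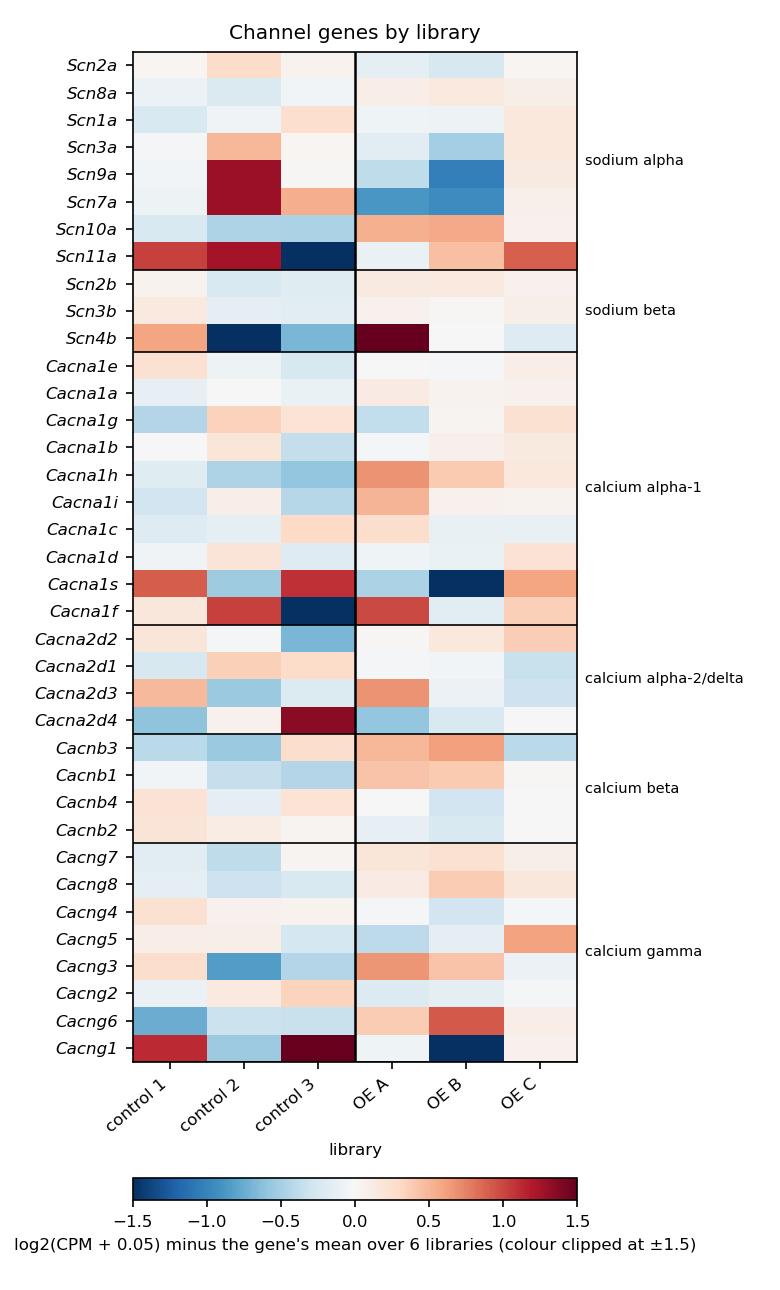
Each row is 1 of 37 of the tested channel genes, grouped by subfamily and ordered by level per length, and each column is 1 library. Colour is the log2(CPM + 0.05) of the gene minus its mean over the 6 libraries. Most rows are pale. Cacna1h, Cacnb1 and Cacng8 turn from blue to red between the groups, though Cacng8 is pale and Cacnb1 is near white in control 1 and OE C. The darkest cells lie in genes of low level or in single libraries, such as Scn4b in OE A and Scn9a in control 2.

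Among the sodium channel alpha genes, Scn2a had the highest level per length, 17.6 CPM per kb of its longest transcript over the 6 libraries, followed by Scn8a with 12.5 CPM per kb. Both encode channels of the axon initial segment, where action potentials start. Scn2a had 159.7, 189 and 162 CPM in controls 1, 2 and 3, and 141, 132 and 159 CPM in OE libraries A, B and C. Every OE library lay below every control library, with the highest OE value, in OE C, just under the lowest control value. The Log2FC of Scn2a was -0.24 ± 0.11 (SE, adjusted P = 0.351 by edgeR), so it was not called. Scn8a, by contrast, was higher in each OE library, with 134, 122 and 139 CPM in controls 1, 2 and 3, and 152, 158 and 150.5 CPM in OE libraries A, B and C. Its Log2FC of 0.22 ± 0.08 (adjusted P = 0.309) was under the fold threshold. Per length, Scn2a was 35.7 ± 0.35% of the summed sodium alpha level in control mice and 31.4 ± 0.85% in OE mice (SD, n = 3 each). The corresponding share of Scn8a was 21.8 ± 3.15% and 26.2 ± 2.39%, with overlap, since control 3 had 24.0% and OE C 23.6%. After correction for GC content the Log2FC was -0.06 ± 0.09 for Scn2a and 0.17 ± 0.08 for Scn8a.

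Scn1a, the sodium channel on which fast-spiking interneurons depend most, had a Log2FC of 0.01 ± 0.14, and Scn3a, a channel of the developing brain, -0.33 ± 0.21.

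Scn7a, an atypical channel known from glia and from neurons that sense sodium, was the only channel gene called lower. It had 4.01, 10.4 and 6.19 CPM in controls 1, 2 and 3, and 2.28, 2.17 and 4.48 CPM in OE libraries A, B and C. The groups overlapped, since OE C lay above control 1, and the exact permutation P was 0.2. The Log2FC was -1.21 ± 0.43 (adjusted P = 0.296). Control 2 had the highest value, and without it the Log2FC was -0.77 and the gene was no longer called. The call was also lost without OE A, at -1.05, and without OE B, at -1.02, so it held in 3 of the 6 fits that left out 1 library. The same library had the highest hypothalamic marker sum and the highest level of Scn9a, a channel of peripheral sensory and hypothalamic neurons, which had 11.2, 28.5 and 11.7 CPM in controls 1, 2 and 3, and 8.82, 5.64 and 12.6 CPM in OE libraries A, B and C. Scn9a had a Log2FC of -0.92 ± 0.44 and was not called, and without control 2 its Log2FC was -0.33. It was called lower without control 1, at -1.15, without control 3, at -1.12, and without OE C, at -1.23. The part of hypothalamic tissue in these values was not tested.

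Scn10a, a channel of pain-sensing neurons, was called higher at a low level. It had 33, 34 and 34 counts in control mice and 75, 78 and 53 counts in OE mice, which is 0.811, 0.683 and 0.681 CPM in controls 1, 2 and 3, and 1.41, 1.45 and 1.01 CPM in OE libraries A, B and C. Every OE library lay above every control library. The Log2FC was 0.83 ± 0.32 (adjusted P = 0.312), and the call held without control 1 and without OE C but not in the other 4 fits that left out 1 library. Scn11a, its neighbour and a channel of the same neurons, had a mean below 1 CPM and a Log2FC of -0.12 ± 1.14.

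The 4 sodium channel beta genes all had a Log2FC above 0, and none was called. Scn2b had 84.2 CPM per kb. Its product adheres to other cells as well as modulating the pore. Scn2b had 405, 334 and 345 CPM in controls 1, 2 and 3, and 428, 432 and 407 CPM in OE libraries A, B and C. Its lowest OE value, in OE C, was just above the highest control value, and its Log2FC was 0.23 ± 0.10 (adjusted P = 0.343).

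Scn3b had a Log2FC of 0.11 ± 0.11. Scn4b, whose product allows the resurgent sodium current of fast-firing neurons and which is abundant in striatum, varied widely within both groups. It had 142, 33.5 and 58.4 CPM in controls 1, 2 and 3, and 322, 94.8 and 82.4 CPM in OE libraries A, B and C. OE A was far above all other libraries, and control 1 was higher than OE B and OE C. The striatal marker sum was also highest in OE A, at 2388 CPM, followed by control 1, at 1354 CPM. It was lowest in control 2, where Scn4b was lowest too. The Log2FC of 1.09 ± 0.68 had an adjusted P of 0.463 and rested on single libraries. Without OE A it was 0.19 and not called, and without control 1 it was 1.86 and called. The part of striatal tissue in it was not tested.

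**Figure D2:**
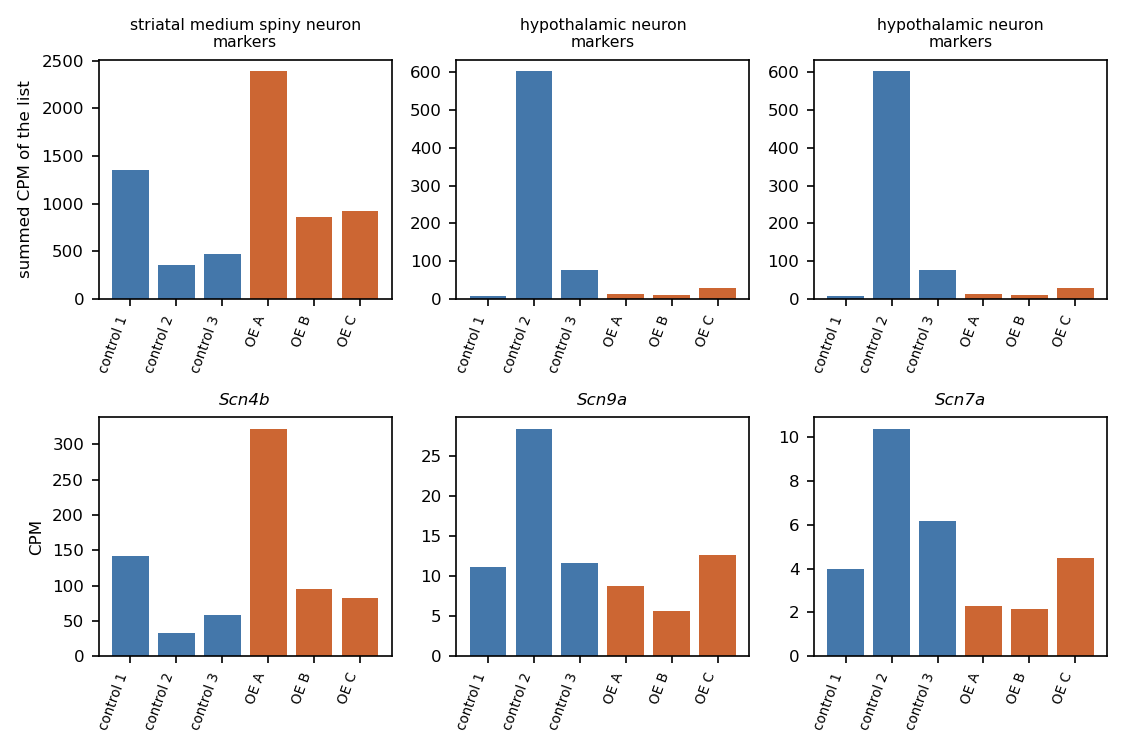
Upper panels give the summed CPM of a marker list in each library and lower panels the CPM of the channel gene set beside it, with control libraries in blue and OE libraries in orange. Scn4b is highest in OE A, at 322 CPM, as the striatal markers are, and Scn9a and Scn7a are highest in control 2, as the hypothalamic markers are.

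Of the 10 calcium channel alpha-1 genes, Cacna1h had the smallest P of the 39 tested channel genes. It encodes the low-threshold T type channel Cav3.2, which opens near rest and supports burst firing. Cacna1h (ENSMUSG00000024112, chr17:25374285-25433783 in GRCm38) had 50.0, 40.9 and 38.0 CPM in controls 1, 2 and 3, and 90.1, 74.5 and 63.0 CPM in OE libraries A, B and C, or 43.0 ± 6.28 CPM in control mice and 75.8 ± 13.6 CPM in AP1AR-DT OE mice (SD, n = 3 each). All 3 OE libraries lay above all 3 control libraries. The Log2FC was 0.82 ± 0.16, a 1.76-fold higher level (adjusted P = 0.295 by edgeR). It was called in every fit run, and with 1 library left out the Log2FC ranged from 0.68 to 0.95.

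The other T type genes had smaller values. Cacna1i had a Log2FC of 0.41 ± 0.18, and Cacna1g -0.08 ± 0.23, and neither was called, though the difference from Cacna1h was not tested. Cacna1i was called higher without control 2, at 0.59, and without OE C, at 0.51. Cacna1g had 51.6, 88.9 and 80.6 CPM in controls 1, 2 and 3, and 54.3, 72.4 and 82.0 CPM in OE libraries A, B and C, with overlap. Per length, Cacna1h made up 28.1 ± 7.04% of the summed T type level in control mice and 38.2 ± 5.11% in OE mice, and Cacna1g 46.1 ± 8.33% and 34.8 ± 8.48% (SD, n = 3 each). These shares overlapped between the groups, since control 1 had 36.2% of Cacna1h and OE C 33.0%.

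Cacna1e, the R type channel of dendrites and spines, had the highest level per length of the alpha-1 genes, 13.5 CPM per kb. It had 235, 190.3 and 169.8 CPM in controls 1, 2 and 3, and 200.3, 197 and 215 CPM in OE libraries A, B and C, with a Log2FC of 0.04 ± 0.13. Its groups overlapped throughout. Cacna1a, the P/Q type channel that triggers fast transmitter release, had 64.7, 70.7 and 65.8 CPM in controls 1, 2 and 3, and 76.7, 73.1 and 73.7 CPM in OE libraries A, B and C. The groups did not overlap, but the difference was small, with a Log2FC of 0.15 ± 0.08 (adjusted P = 0.421), and it turned to -0.06 ± 0.09 after correction for GC content. The N type gene Cacna1b (0.10 ± 0.14) and the L type genes Cacna1c (0.02 ± 0.17) and Cacna1d (0.03 ± 0.14) all had a Log2FC smaller than its SE. Cacna1s, of skeletal muscle, and Cacna1f, of retina, had means below 1 CPM and Log2FC of -0.95 ± 0.75 and 0.37 ± 1.13.

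None of the 4 alpha-2/delta genes was called. Cacna2d2 had the highest level per length, 22.3 CPM per kb, and had 143, 124 and 78.5 CPM in controls 1, 2 and 3, and 128, 141 and 162 CPM in OE libraries A, B and C. Control 3 was low and the groups overlapped, and the Log2FC was 0.32 ± 0.22 (adjusted P = 0.501). Without control 3 it was 0.12. Cacna2d1, which together with Cacna2d2 is the target of gabapentin, had -0.28 ± 0.18, and -0.45 with a call without control 1. Cacna2d3 had 0.18 ± 0.35. Cacna2d4, known from retina, had 1.79, 2.89 and 7.13 CPM in controls 1, 2 and 3, and 1.83, 2.34 and 2.74 CPM in OE libraries A, B and C, with its highest value in control 3, and a Log2FC of -0.78 ± 0.50. Without control 3 it was -0.0150, and without control 1 it was -1.12 and called.

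The 4 calcium channel beta genes, whose products bind the pore inside the cell and bring it to the membrane, went in different directions. Cacnb1 (ENSMUSG00000020882, chr11:98001508-98023034) was called higher and had 96.1, 77.9 and 73.1 CPM in controls 1, 2 and 3, and 133, 130.5 and 101 CPM in OE libraries A, B and C. The groups did not overlap, although OE C, at 101 CPM, came close to control 1. The means were 82.4 ± 12.2 CPM in control mice and 121 ± 18.1 CPM in AP1AR-DT OE mice (SD, n = 3 each). The Log2FC was 0.56 ± 0.15 (adjusted P = 0.295), and it ranged from 0.49 to 0.69 with 1 library left out and was called each time. Cacnb3 had the highest level per length, 36.8 CPM per kb, and had 72.2, 64.5 and 115 CPM in controls 1, 2 and 3, and 134, 146 and 71.7 CPM in OE libraries A, B and C. OE C lay within the range of the controls, and the Log2FC was 0.48 ± 0.31 (adjusted P = 0.480). It was called without control 3, at 0.79, and without OE C, at 0.75. The 6 libraries stood in the same order by Cacnb3 as by the summed markers of excitatory cortical neurons, which had 1306 CPM in control 2, 1948 in OE C, 2229 in control 1, 2351 in control 3, 2789 in OE A and 3474 in OE B. The part of cell makeup in Cacnb3 was not tested.

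Cacnb2 was lower in every OE library, with 47.5, 45.0 and 42.6 CPM in controls 1, 2 and 3, and 38.2, 35.4 and 41.8 CPM in OE libraries A, B and C. The Log2FC was -0.23 ± 0.10 (adjusted P = 0.349) and turned to 0.06 ± 0.09 after correction for GC content. Cacnb4 had -0.19 ± 0.13 before and 0.06 ± 0.12 after that correction.

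The gamma genes held both the highest calcium channel levels and 2 of the 5 genes called higher. Cacng7 and Cacng8 had 80.2 and 58.3 CPM per kb, the highest of the calcium channel genes. Cacng8 encodes TARP gamma-8, a partner of AMPA receptors in forebrain neurons. Cacng8 (ENSMUSG00000053395, chr7:3390683-3415648) had 99.1, 88.1 and 93.2 CPM in controls 1, 2 and 3, and 119, 142 and 122 CPM in OE libraries A, B and C, or 93.5 ± 5.52 CPM in control mice and 128 ± 12.8 CPM in AP1AR-DT OE mice (SD, n = 3 each). All OE libraries lay above all control libraries. The Log2FC was 0.45 ± 0.10 (adjusted P = 0.295), from 0.37 to 0.51 with 1 library left out, and it was called each time. After correction for GC content the Log2FC was 0.10 ± 0.09 and the gene was not called.

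Cacng7, which also binds AMPA receptors, had 158, 135 and 181 CPM in controls 1, 2 and 3, and 199, 205 and 187 CPM in OE libraries A, B and C. The lowest OE value, in OE C, was just above control 3. The Log2FC of 0.319 ± 0.121 (adjusted P = 0.309) fell just short of the fold threshold, and Cacng7 was called without control 3 and without OE C. Cacng6, a close relative of the gamma subunit of the skeletal muscle channel, was called higher at a low level. It had 22, 37 and 37 counts in control mice and 66, 99 and 53 counts in OE mice, which is 0.541, 0.743 and 0.741 CPM in controls 1, 2 and 3, and 1.24, 1.84 and 1.01 CPM in OE libraries A, B and C. The groups did not overlap, the Log2FC was 1.01 ± 0.37 (adjusted P = 0.300), and the call was lost without control 1, without OE A and without OE B.

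Cacng7, Cacng8 and Cacng6 lie side by side on chromosome 7 (chr7:3332955-3435667, GRCm38), and all 3 were higher in OE mice without overlap. Their Log2FC lay between 0.32 and 1.01, and between 0.10 and 0.90 after correction for GC content. The related run of Cacng1, Cacng4 and Cacng5 on chromosome 11 (chr11:107703218-107915055) did not show this, with 1 Log2FC above 0 and 2 below. Nor did the 5 sodium channel genes of chromosome 2, Scn3a, Scn2a, Scn1a, Scn9a and Scn7a (chr2:65457118-66784914), where 1 was above 0 and 4 below. Scn2b and Scn4b on chromosome 9 (chr9:45117782-45154152) were both above 0, of which Scn2b was without overlap. Cacna2d3 and Cacna1d on chromosome 14 (chr14:28904943-30491455) were both above 0 with overlap, and of Cacna1c and Cacna2d4 on chromosome 6 (chr6:118587240-119352407) 1 was above and 1 below. As the genes of a run were not tested as a group, these are descriptions.

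Of the TARP genes, Cacng4 was lower in every OE library, with 110.2, 98.4 and 97.4 CPM in controls 1, 2 and 3, and 91.5, 76.7 and 91.6 CPM in OE libraries A, B and C, and its Log2FC was -0.24 ± 0.11 (adjusted P = 0.348). Cacng2, which encodes stargazin, had 46.1, 54.8 and 62.1 CPM in controls 1, 2 and 3, and 42.8, 44.8 and 48.3 CPM in OE libraries A, B and C, with overlap of OE C and control 1, and a Log2FC of -0.26 ± 0.13. Without control 1 it was -0.37 and called. Cacng3 went the other way, at 0.63 ± 0.31, with 64.1, 29.8 and 39.4 CPM in controls 1, 2 and 3, and 84.4, 72.0 and 50.2 CPM in OE libraries A, B and C. Control 1 was above OE C, and Cacng3 was not called, but without control 1 it was, at 0.99, and without OE C, at 0.83. Cacng5 had 0.10 ± 0.26. Cacng1, the subunit of the skeletal muscle channel, had a mean below 1 CPM and a Log2FC of -1.79 ± 1.15.

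**Figure D3:**
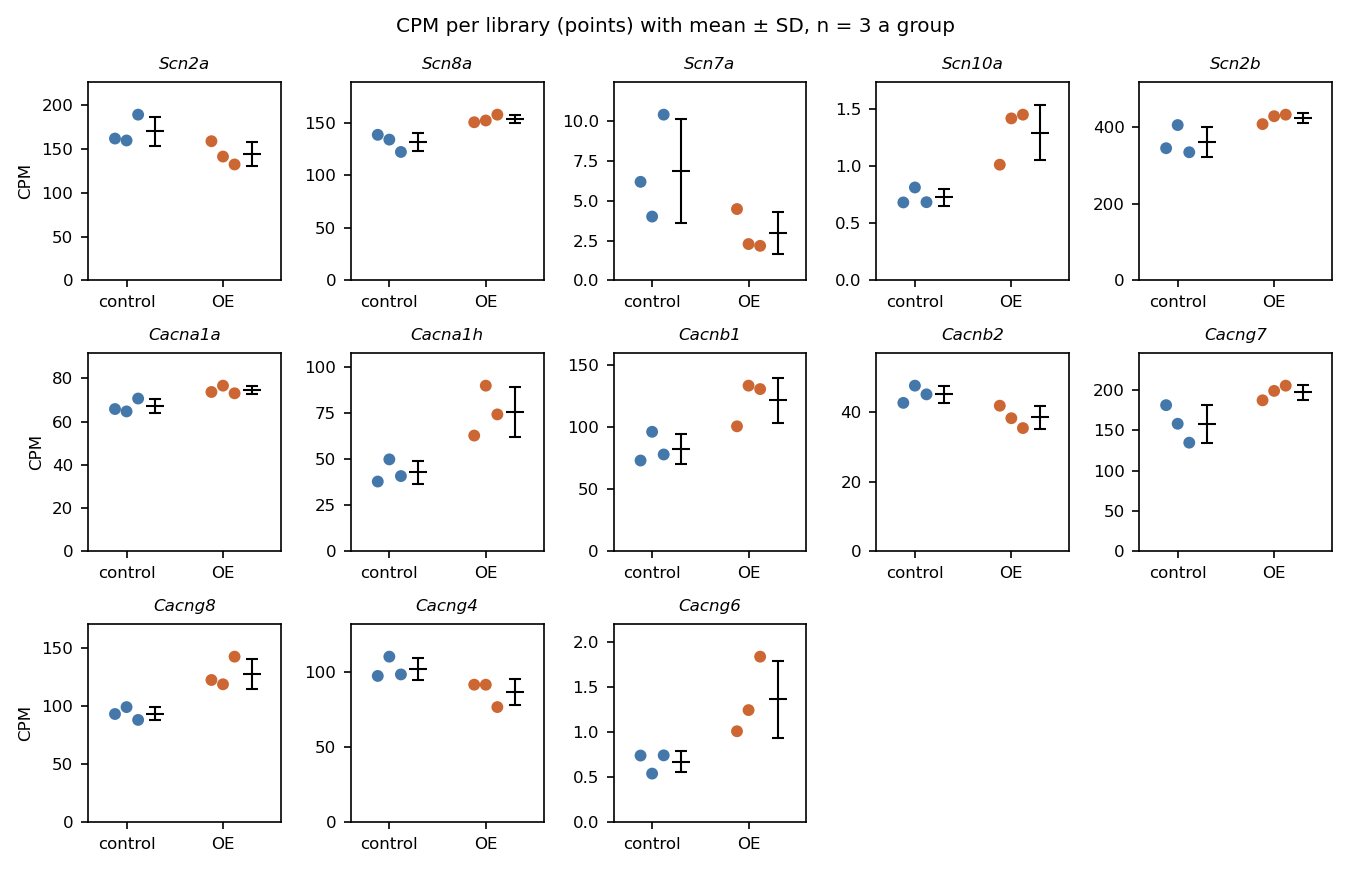
Each panel is 1 channel gene that was called or whose groups did not overlap, with CPM on an axis that starts at 0. Points are libraries, control in blue and OE in orange, and bars are the mean ± SD (n = 3 per group). Cacna1h rises from 43.0 to 75.8 CPM in the mean, Cacng6 and Scn10a stay below 2 CPM, and Scn7a is the 1 gene whose groups overlap.

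The Log2FC of the channel genes moved with the GC content of their transcripts, as did that of all genes. The median Log2FC over all genes was -0.30 in the lowest decile of GC content and 0.22 in the highest. Of the 11 channel genes with a mean above 1 CPM and at least 55% GC, 10 had a Log2FC above 0, with a median of 0.39. Of the 8 such genes under 45% GC, 7 were below 0, with a median of -0.26. Cacng8, with 65.0% GC, Cacna1h, with 60.0%, and Cacnb1, with 59.7%, were in the former group, and Scn7a, with 40.2%, and Scn2a, with 43.4%, in the latter. Across the 39 tested channel genes, which share the 6 libraries, Pearson's r between GC content and Log2FC was 0.44 and Spearman's rho 0.61.

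Each library's dependence on GC content was then removed with a smooth curve. After this 2.76% of all genes were called higher and 4.4% lower. Cacna1h and Cacng6 were still called higher, while Scn7a, Cacng4 and Cacng2 were called lower. The Log2FC of Cacna1h was then 0.57 ± 0.15, and that of Cacng6 0.90 ± 0.36. Cacnb1, at 0.316 ± 0.133, ended just under the fold threshold, and Scn10a, at 0.73 ± 0.31, missed the threshold on P. For Scn7a it was -0.95 ± 0.40, for Cacng4 -0.36 ± 0.12 and for Cacng2 -0.33 ± 0.13. In 28 of the 39 the Log2FC moved nearer to 0, and Cacna1a, Cacna1c, Cacnb2 and Cacnb4 changed sign. Whether the GC dependence is technical or follows from the treatment was not tested.

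**Figure D4:**
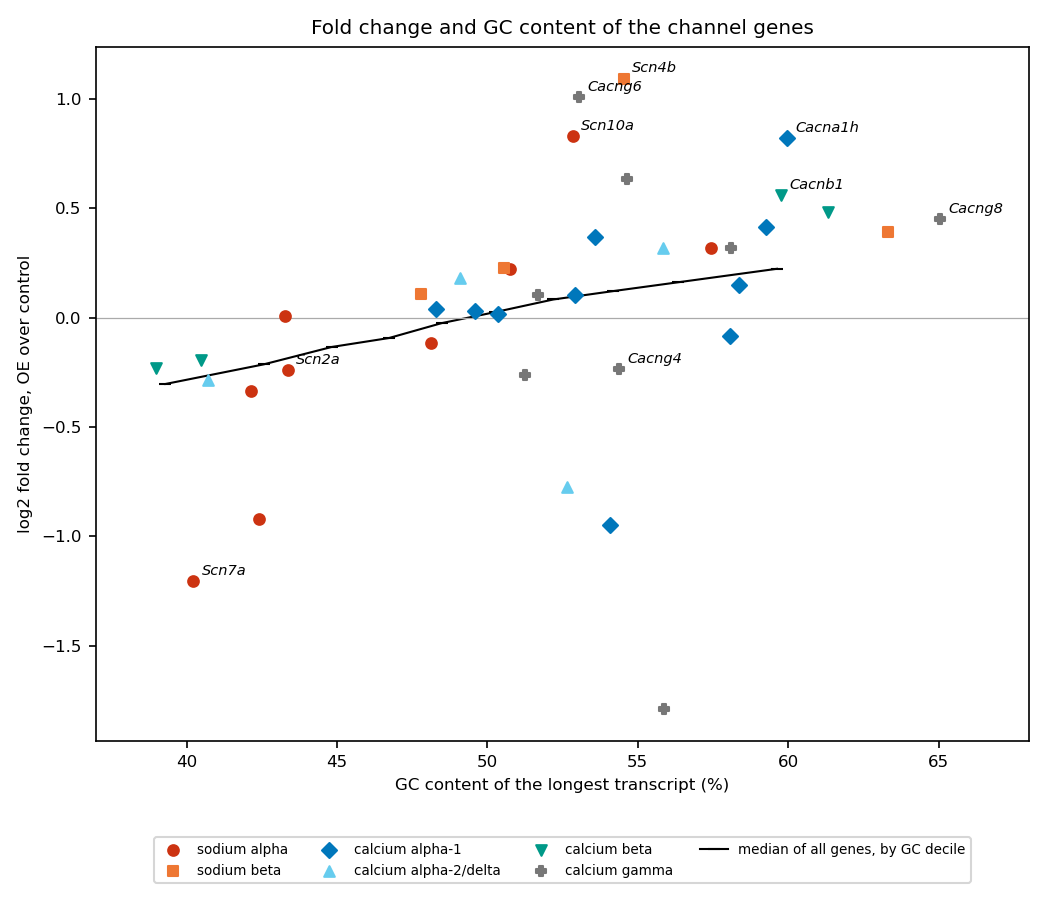
Points are the 39 tested channel genes, with the GC content of the longest transcript (%) against the Log2FC of AP1AR-DT OE over control. The black line joins the median Log2FC of all genes in each decile of GC content and climbs from -0.30 to 0.22. Cacna1h and Cacnb1 lie above the line at its GC-rich end, Cacng8 lies beyond that end, and Scn7a lies below the line at the GC-poor end.

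**Figure D5:**
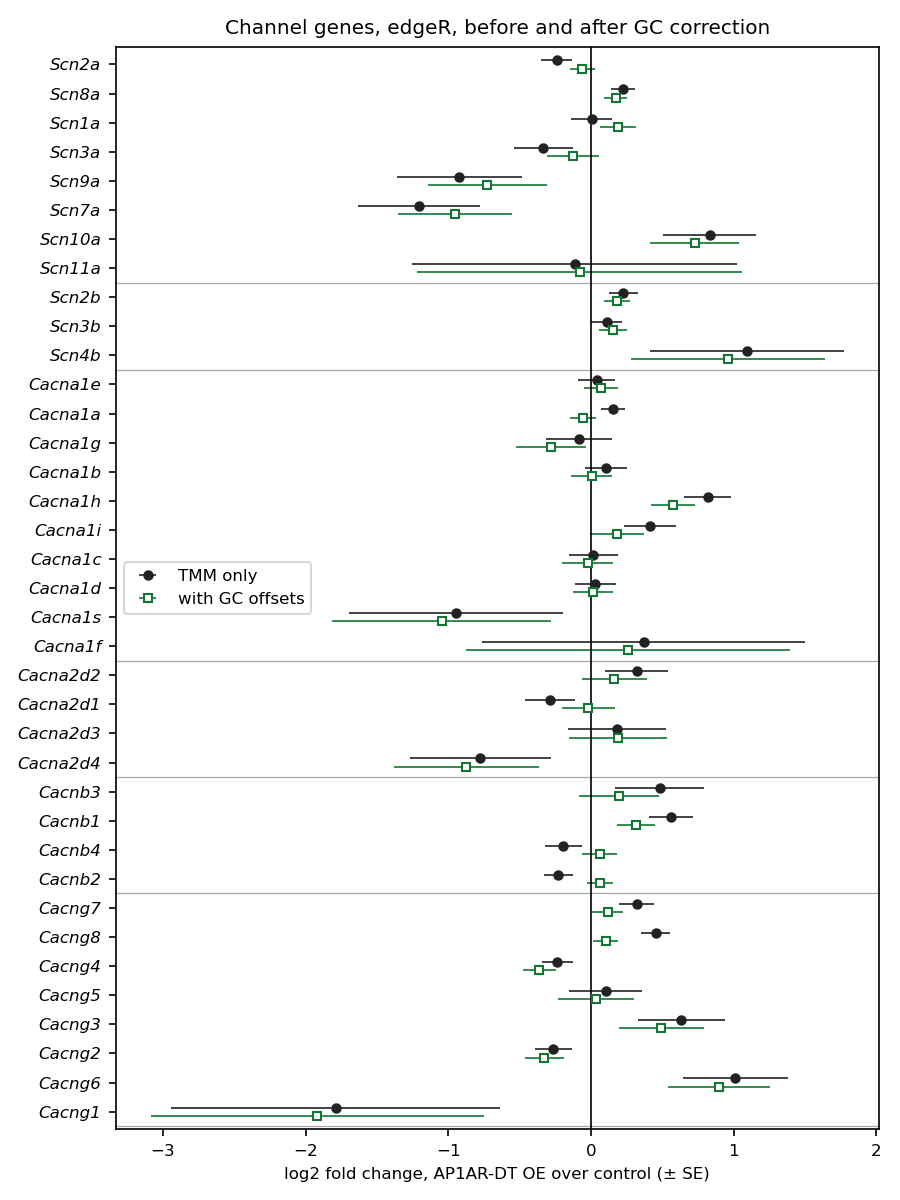
Log2FC ± SE of 37 of the tested channel genes by edgeR (n = 3 per group), with TMM scaling only (filled) and with GC correction (open). Cacna1h moves from 0.82 to 0.57 and stays clear of 0, Cacng8 moves from 0.45 to 0.10, and Scn2a moves from -0.24 to -0.06.

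A list of 36 genes, most for products that bind, anchor or modify these channels, gave the surroundings. It also held Nalcn, Unc79, Unc80 and Dpp6, which are known from other channels. In it 3 genes were called higher and 3 lower, 8.33% each against 5.1% and 7.15% of all genes. None had adjusted P under 0.05 in edgeR with all libraries. Over all fits run, DESeq2 included, the smallest adjusted P was 0.014 for Cabp1, 0.015 for Sptbn4 and 0.034 for Akap5. Without control 1 the number called was 13, or 36.1% of the list against 15.0% of all genes, and without OE C it was 11, or 30.6% against 15.6%. Prrt2, a presynaptic protein that acts on sodium channels and transmitter release, had 4.42, 25.2 and 35.6 CPM in controls 1, 2 and 3, and 42.3, 229 and 170.2 CPM in OE libraries A, B and C. The groups did not overlap but spread widely, and the Log2FC was 2.76 ± 0.84 (adjusted P = 0.295). Cabp1, a calcium sensor that binds calcium channels, had 23.7, 18.6 and 32.2 CPM in controls 1, 2 and 3, and 60.0, 72.1 and 33.4 CPM in OE libraries A, B and C, with a Log2FC of 1.15 ± 0.31. Sptbn4, the spectrin of the axon initial segment and nodes, had 152, 128 and 129 CPM in controls 1, 2 and 3, and 218, 209 and 172 CPM in OE libraries A, B and C. Its Log2FC was 0.55 ± 0.12, and 0.23 after correction for GC content.

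Lower were Akap5, which anchors kinases and phosphatases at L type channels, Cachd1, an alpha-2/delta-like protein, and Fgf12, which binds the tail of sodium channels. Akap5 had 116, 45.7 and 44.7 CPM in controls 1, 2 and 3, and 35.2, 21.9 and 32.2 CPM in OE libraries A, B and C, with control 1 far above the rest and a Log2FC of -1.21 ± 0.40. Without control 1 it was -0.60 and Akap5 was still called. Without OE B its call was lost. Cachd1 had 25.8, 28.4 and 35.6 CPM in controls 1, 2 and 3, and 17.3, 20.6 and 25.4 CPM in OE libraries A, B and C and a Log2FC of -0.50 ± 0.18, and lost its call without control 3, without OE A and without OE B. Fgf12 had 138, 142 and 151 CPM in controls 1, 2 and 3, and 97.0, 99.8 and 128 CPM in OE libraries A, B and C and a Log2FC of -0.41 ± 0.12, and lost its call without OE A. The groups did not overlap for any of these 6 genes, against 22.4% of all genes tested. The 6 were picked by their call on the same values, so this adds no separate evidence. After correction for GC content Prrt2 and Cabp1 were still called higher and Akap5 and Cachd1 lower.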

How the data were processed

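RNA-seq of brain tissue from 3 AP1AR-DT OE mice and 3 control mice was analysed. The authors deposited raw counts per gene, whole numbers, made per the paper's methods with StringTie and its Python script after mapping with Bowtie2 to GRCm38. The submitters' processing notes instead name TopHat2 2.0.4, SAMtools, HTSeq, Cuffdiff and edgeR 2.6.12 and another build, and which applies was not settled. The table also holds the authors' mean normalized counts, log2 fold changes, standard errors, test statistics and P-values, which were not used. Library totals were 42061721 to 54668294 counts. Precision was taken from the spread between mice.

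Genes were tested in R 4.3.3 with edgeR 4.0.16 (filterByExpr, TMM, quasi-likelihood F-test, two-sided, Benjamini-Hochberg adjustment) over all 21844 genes that passed the filter. DESeq2 1.42.0 and limma 3.58.1 were alternatives. For GC correction each library's counts were modelled on GC content by a natural spline (5 degrees of freedom, 14011 genes of mean log2 CPM over 2), and the curves served as offsets. The fits were tested on simulated data. GC content, lengths, coordinates and strands are from GENCODE vM21 (GRCm38), using the longest transcript of each gene. Levels between genes are compared only as CPM per kb of that transcript. Exact permutation tests used log2 CPM with a prior count of 2. Named with a value in every library are the called genes, those whose groups do not overlap and the gene highest per length in each subfamily. Of these genes and those in the figures, some are not reported here. Further genes given such values (Scn9a, Scn4b, Cacna1g, Cacna2d4, Cacng2 and Cacng3) were added after their values were seen. The members, the partner list and the marker lists were chosen with earlier results of these data known.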

Additional observations from a re-analysis of the deposited data

How the results depend on the processing

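The number of channel genes called was 6. It was 5 to 9 with DESeq2, limma-voom, size factors of DESeq2, plain library totals, no count filter, a minimum of 10 counts in every library, and correction for GC content or transcript length. With DESeq2 it was 9, or 23.1% of the channel genes against 13.6% of all genes. These were Cacna1h, Cacna1i, Cacnb1, Cacng3, Cacng6, Cacng7 and Cacng8, called higher, and Scn7a and Scn9a, called lower. Scn10a was not among them. At an adjusted P under 0.05 in edgeR the number of channel genes was 0, and the same held for the partner genes. However, 8 channel genes passed an unadjusted P of 0.05 in edgeR, and DESeq2 gave 3 channel genes at its own adjusted P. Over all fits, the smallest adjusted P was under 0.05 for the partner genes Cabp1, Sptbn4 and Akap5 as well. With 1 library left out the number called was 3 to 11 for channel genes, lowest without OE A or OE B and highest without OE C or control 1. For the partner genes it was 4 to 13, while 6.33% to 15.6% of all genes were called in these fits. The number of channel genes whose groups do not overlap was 12, with 12 to 21 when 1 library was left out, the highest without control 1, or 30.8% to 53.8% of them against 27.6% to 39.8% of all genes. It fell to 5 after GC correction, 12.8% against 15.8% of all genes, and to 6, 15.4% against 16.1%, when the mean GC content over a gene's transcripts was used, an alternative chosen after seeing the data. With that alternative Cacnb1 and Scn10a kept their call and Scn7a did not. Among the named genes the Log2FC of Cacna1a turned to -0.057 and -0.021 under these 2 corrections, that of Cacnb2 to 0.064 under the planned one, and that of Cacna1e to -0.048 without control 3, within a range of -0.048 to 0.18 when 1 library was left out. The cause was not tested. Cacna1h was called in all 16 fits. No paired analysis was run, since the labels pair no control mouse with an OE mouse. Cacng1, Cacna1f and Scn11a, below 1 CPM, had standard errors above 1 on the log2 scale, so differences of that size were not detectable.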
